A study of Mus musculus with 15 samples.

Results

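The genes described here are the receptor tyrosine kinases Met, Mst1r, Egfr, Erbb2 and Erbb3 and the growth factors Hgf, Tgfa, Hbegf, Ereg and Areg, measured in mouse pancreatic tumours. Members were chosen by symbol, as all probes on the array that carry one of these 10 gene symbols. Of the 10, 9 have a probe among the annotated symbols, out of 19057 symbols in all, and together they have 19 probes out of 45281. Areg was not analysed here. Met joined the set because it had been seen to be lower in late ablation, so its values in late ablation and late control arrays chose it and are given below without a test.

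The tumours are pancreatic ductal adenocarcinomas (PDAC) of mice whose genetic background was mixed C57BL/6 and Balb/c. Every mouse, the controls included, was labelled positive for αSMA-tk. In this transgene the promoter of Acta2 (alpha smooth muscle actin) drives a viral thymidine kinase, so that dividing cells using that promoter, myofibroblasts among them, die when ganciclovir (GCV) is given. There were 5 groups of 3 arrays. Mice with late ablation plus anti-CTLA4 received GCV once PDAC had formed, together with an antibody against the T cell checkpoint receptor CTLA4. Late ablation mice received GCV at that stage without the antibody, and late control mice received no GCV. Early ablation mice received GCV while their lesions were still pancreatic intraepithelial neoplasia (PanIN), and early control mice received none. The tumour alleles, the ages and whether each array came from a separate animal are not given in the sources used here, so the spread behind each p-value is that between arrays and may be technical.

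MET is the receptor for hepatocyte growth factor (HGF), which fibroblasts and other mesenchymal cells secrete as an inactive precursor that proteases cut into the active form, while MET itself sits mainly on epithelial cells. MST1R (RON) is its closest relative and binds the HGF-like protein MST1. EGFR binds TGFA, HBEGF, AREG, EREG and EGF, which are made as membrane-anchored precursors and shed by metalloproteases. ERBB2 has no known ligand and acts as a partner of the others, and ERBB3 binds neuregulins. These receptors feed the RAS-ERK and PI3K-AKT cascades, and in the mouse pancreas Egfr takes part in the change of acinar cells into duct-like cells.

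Met and Hgf are the receptor and ligand on which most of this account turns, so their promoters are shown. The sequences are the 250 bases before the annotated start, 5′ to 3′ on the plus strand, from RefSeq (GRCm38.p6), at chr6:17463707-17463956 for Met and at chr5:16553245-16553494 for the upstream start of Hgf. Capitals mark matches on either strand to 3 motifs. The AP-1 motif was searched as TGANTCA. The GC box, which the factor SP1 binds, was searched as GGGCGG. The core of the hypoxia response element was searched as ACGTG.
Met: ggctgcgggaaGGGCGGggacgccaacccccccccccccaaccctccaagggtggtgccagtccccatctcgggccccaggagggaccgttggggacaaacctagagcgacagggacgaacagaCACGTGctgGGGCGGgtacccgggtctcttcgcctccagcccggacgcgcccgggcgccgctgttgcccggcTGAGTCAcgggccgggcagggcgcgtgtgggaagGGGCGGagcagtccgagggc
Hgf: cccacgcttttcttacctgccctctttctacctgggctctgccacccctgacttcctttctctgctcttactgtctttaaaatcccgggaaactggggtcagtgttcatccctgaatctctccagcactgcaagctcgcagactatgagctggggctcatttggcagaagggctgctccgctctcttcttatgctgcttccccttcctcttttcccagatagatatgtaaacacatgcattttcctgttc

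The Met window held 1 AP-1 match, which began 54 bases before the start, 3 GC boxes and 2 matches to the hypoxia response core, which overlap on opposite strands. The Hgf window held none of these letters. Among the 32851 promoters in the table, 6.75% held an AP-1 match in the same window, 32.7% a GC box and 16.6% the hypoxia response core. A match is a run of letters and not evidence of binding. The promoter table held 7 of the 10 members.

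Levels are log2 normalized signals, and a probe counted as detected on an array where its signal stood above that array's negative controls (detection p under 0.05). Per array, 38.5% to 43.5% of probes were detected, and rank correlations between arrays were 0.889 to 0.973. The nearest match of late ablation array 1 was late control array 1, and the reverse also held (0.972). The duct keratin gene Krt19 was bright in every group, with group means of 13.18 to 13.69. Acta2, whose promoter drives the transgene, averaged 11.77 ± 1.07 in late ablation and 11.81 ± 1.31 in late control (SD, n = 3 each), and 12.52 ± 1.37 in early ablation and 11.77 ± 0.56 in early control (SD, n = 3 each). The anti-CTLA4 arrays lie in a data table of their own, so that group and its table cannot be told apart in any comparison below.

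Met was a dim gene, detected on all arrays of some groups and on none of others. Its single probe (ILMN_2828877) gave 5.28, 5.27 and 5.24 in the late ablation plus anti-CTLA4 arrays and was detected on all 3. In the late ablation arrays it gave 4.72, 4.66 and 4.69 and was detected on none, whereas the late control arrays gave 5.49, 5.64 and 5.16 and all 3 were detected. In the early ablation arrays it gave 5.07, 4.95 and 5.03, detected on 2, against 4.76, 4.75 and 4.91 in the early control arrays, detected on none. The late control and anti-CTLA4 arrays were thus the highest of the 15, and no late ablation or early control array was above background. In a bulk tumour, fewer Met-expressing cells and less Met RNA per cell cannot be told apart.

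**Figure D1:**
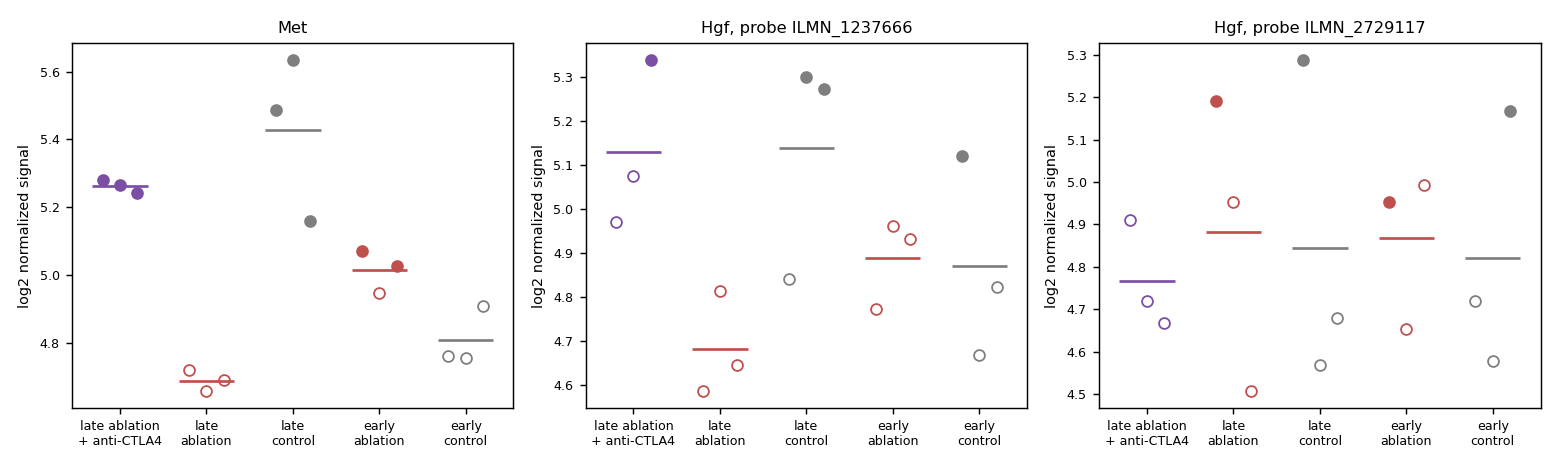
Log2 normalized signal of the Met probe and of the 2 Hgf probes detected on any array, for each of the 15 arrays in 5 groups. Points are arrays, filled where the probe was detected and open where it was not, and bars are group means; each vertical axis has its own range and does not start at 0. The 3 late ablation arrays lie between 4.66 and 4.72 for Met, below every late control array.

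In order of group means, Met stood highest in late control (5.43 ± 0.24, SD, n = 3), followed by late ablation plus anti-CTLA4 (5.26 ± 0.02) and early ablation (5.01 ± 0.06). Early control (4.81 ± 0.09) and late ablation (4.69 ± 0.03) were not above background, so no order is read between them. The top 2 groups lay within their pooled SD of each other. Before background correction the Met signals were 97.6 to 161.9, where the arrays' median signals over all probes were 95.2 to 142.1. Met therefore lay close to the limit of measurement on all 15 arrays.

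Late ablation minus late control gave a Met difference of -0.74 (SE 0.17, 3 against 3 arrays), which is a description since this contrast chose the gene. With the undetected late ablation signals raised to the lowest detected signal of their array, Met was at least 1.29-fold lower in late ablation. The difference was -0.24 without background correction, -0.37 with a larger offset added to the signal, and -0.97 in the authors' value table. It was -0.73 without late ablation array 1 and late control array 1. It ranged from -0.87 to -0.63 when each late array was left out in turn.

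The Met difference that reuses none of those late arrays is early ablation minus early control. Its SE, interval and p do reuse them, because the fit pools the spread of all 12 arrays. That spread was wider in late control (SD 0.25) than in early ablation (0.06) or early control (0.09). The difference there was 0.21 (SE 0.17, 95% interval -0.17 to 0.58), and limma's adjusted p was 0.744. All 3 early ablation arrays stood above all 3 early control arrays, and 21.3% of the 14633 features had groups that did not overlap. The test called no change of Met at the early stage, and its interval reaches from a small loss to a gain of 0.58.

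The remaining Met differences share late arrays with the contrast that chose it, so they are values only. Late control minus early control was 0.62, or at least 1.22-fold higher in late control. Late ablation minus early ablation was -0.33, with no fold given because the bound lay under 1. Late ablation plus anti-CTLA4 minus late ablation was 0.58, or at least 1.15-fold higher with the antibody. Late ablation plus anti-CTLA4 minus late control was -0.16, and those groups overlapped.

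Mst1r, the receptor for MST1, was detected on all 15 arrays by both of its probes, whose levels correlated at r = 0.951 over the arrays. On the brighter probe (ILMN_2757671) the level was 9.77, 9.43 and 9.04 in late ablation plus anti-CTLA4, 8.86, 10.02 and 10.03 in late ablation, and 8.78, 10.26 and 10.02 in late control. It was 8.16, 9.84 and 9.45 in early ablation, against 9.58, 9.86 and 9.80 in early control. Array 1 stood apart from arrays 2 and 3 in late ablation, in late control and in early ablation, each time below them. No neighbouring pair of groups in the order of means differed by more than its pooled SD.

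Mst1r differed by -0.60 in early ablation minus early control (SE 0.49, adjusted p = 0.741) and by 0.49 in late ablation minus early ablation (SE 0.49, adjusted p = 0.812). With median scaling of the arrays in place of quantile normalization, the first of these was -0.25. It was -0.10 without early ablation array 1, and the second was then -0.0050. On that array the summed signal of the 8 measured acinar markers was 1053, the lowest of all 15, where the other early ablation arrays had 23715 and 45046. Its epithelial (49535) and ductal lesion (53800) marker sums were also the lowest, and its leukocyte sum (22983) was the highest. Late control array 1 and late ablation array 1, which were also low in Mst1r, had acinar sums of 48659 and 31633. Whether these sums bear on Mst1r was not tested. In late ablation minus late control the difference was -0.04.

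Egfr, the receptor of most of the ligands here, was covered by 6 probes, whose early differences were unequal in size. The brightest (ILMN_2693922, annotated to NM_207655, the full-length receptor) gave 11.26, 10.33 and 9.63 in late ablation plus anti-CTLA4, 9.76, 10.45 and 10.46 in late ablation and 10.44, 10.62 and 10.27 in late control. It gave 9.85, 10.51 and 9.92 in early ablation, against 9.96, 10.68 and 10.63 in early control. These groups overlapped. The difference in early ablation minus early control was -0.33 (SE 0.28, adjusted p = 0.749), and it was -0.017 with median scaling, which put the median of all features at 0.25 in that comparison.

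A pair of probes annotated to NM_007912, a shorter Egfr transcript, showed a wider gap at the early stage than the brightest probe. Probe ILMN_3052260 gave 6.32, 6.97 and 7.04 in early ablation, against 7.21, 7.95 and 7.95 in early control, so the groups did not overlap. The same held for 21.3% of the features of the main fit. Probe ILMN_3128725 gave 6.60, 7.73 and 7.46 in early ablation, against 7.71, 8.60 and 8.44 in early control, where 1 ablation array reached above the lowest control. With every probe as its own feature, the differences were -0.93 (SE 0.29, unadjusted p = 0.00701, limma's adjusted p = 0.522) and -0.99 (SE 0.33, unadjusted p = 0.0109, adjusted p = 0.522). Neither passed the threshold. These probes followed each other closely over the arrays (r = 0.943), so they are not separate evidence.

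The brighter of the remaining Egfr probes, ILMN_1241496, gave 8.90, 8.98 and 9.08 in early ablation, against 9.20, 10.39 and 10.11 in early control, a difference of -0.91 (SE 0.56, adjusted p = 0.673). The dim probe ILMN_2614432 is annotated, like the brightest probe, to the full-length receptor. It gave 4.96, 4.76 and 4.80 in early ablation, detected on 1 array, against 5.11, 5.87 and 5.49 in early control, detected on 3. That was a difference of -0.65 (SE 0.26), given without a test because the probe reached 3 detected arrays only through the early control group. Probe ILMN_2581001 was detected on no array. All 5 detected Egfr probes thus had a lower mean in early ablation than in early control, also with median scaling (differences of -0.62 to -0.017). None of those tested passed the threshold, and ILMN_2614432 was among the 5 only through its early control signals.

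**Figure D2:**
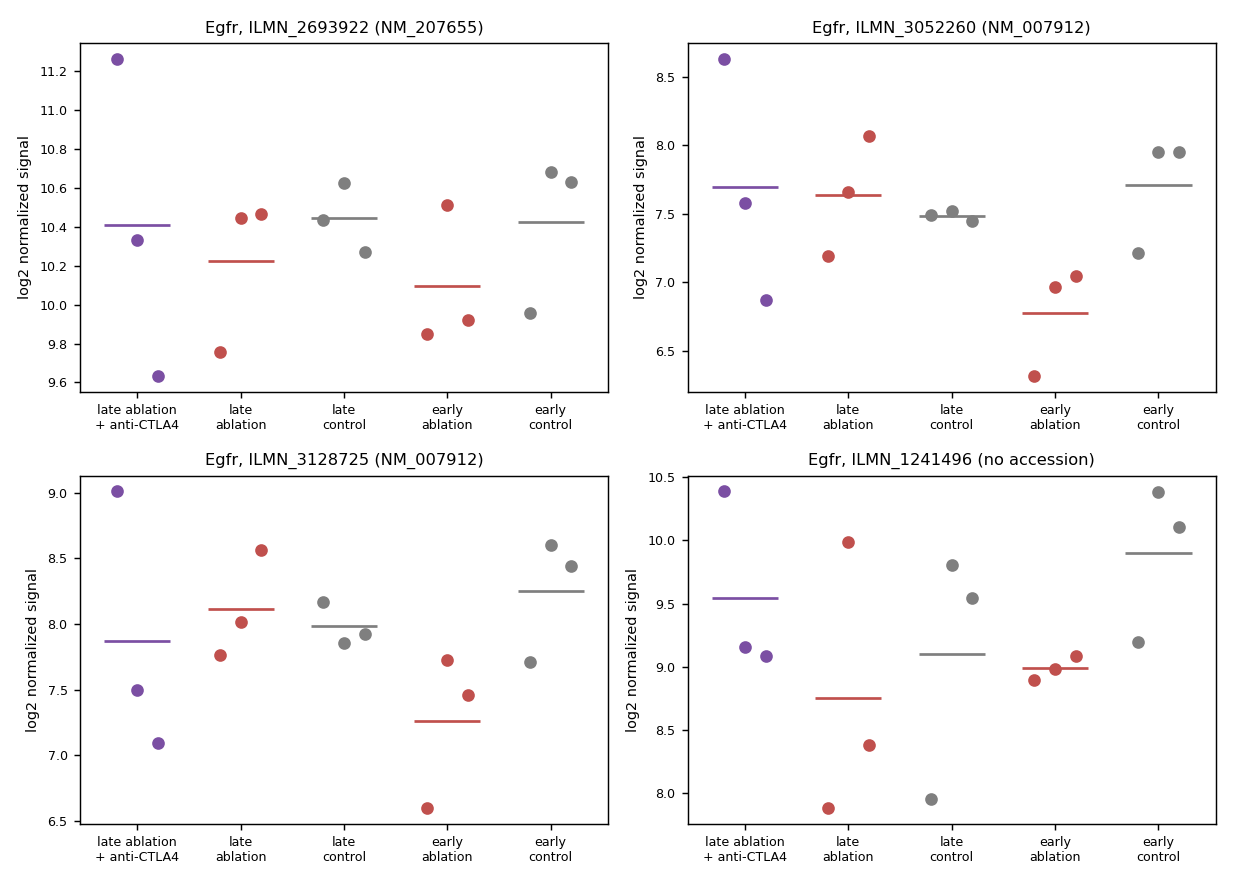
Log2 normalized signal of 4 Egfr probes, those detected on all 15 arrays, by array and group. Points are arrays, all filled because all were detected, and bars are group means; each vertical axis has its own range and does not start at 0. For ILMN_3052260 the early ablation arrays (6.32 to 7.04) lie below the early control arrays (7.21 to 7.95), whereas for ILMN_2693922 the same groups overlap.

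The remaining comparisons of Egfr gave other values. In late ablation minus early ablation, the NM_007912 probes differed by 0.86 (ILMN_3052260, SE 0.29, unadjusted p = 0.0109, adjusted p = 0.640) and 0.85 (ILMN_3128725, SE 0.33, unadjusted p = 0.0234, adjusted p = 0.659). Their groups did not overlap, nor did those of 11.9% of the features of the main fit. The brightest probe differed by 0.13 in the same comparison (SE 0.28, adjusted p = 0.924). In late ablation minus late control, the detected probes differed by -0.35 to 0.34, in both directions. On ILMN_1241496 the lowest of the 15 arrays were late ablation array 1 at 7.88 and late control array 1 at 7.95.

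Markers of some of the tumour's cell types separated the early groups, and those of others did not. The summed smooth muscle, leukocyte, acinar and islet markers overlapped between early ablation and early control. Of all features, 21.3% had early groups that did not overlap. Summed over the 8 epithelial markers, signal was 49534.8 to 55392 in early ablation and 57520.6 to 66049.8 in early control. Over the 7 measured markers of ductal lesions it was 53800 to 87765.7 in early ablation and 96644.9 to 113889 in early control. Over the 9 fibroblast markers it was 11945 to 16082 in early ablation and 4671 to 8068 in early control. Over the 5 endothelial markers it was 762 to 1096 in early ablation and 398 to 702 in early control. The epithelial adhesion gene Epcam was detected on no early ablation array, and also on no array of late ablation plus anti-CTLA4. Its group means were close to background in every group (4.46 to 5.51), so its loss of detection says little. The bright Krt19 overlapped between the early groups, at 12.91 to 13.51 in early ablation and 13.44 to 13.99 in early control. The part of these shifts in the Egfr and Mst1r values was not tested.

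Erbb2, the partner receptor without a ligand of its own, was detected on every array. Its probe (ILMN_2739424) gave 9.96, 9.20 and 8.96 in late ablation plus anti-CTLA4, 8.59, 9.13 and 9.33 in late ablation and 8.93, 9.46 and 9.28 in late control. It gave 8.74, 9.19 and 8.64 in early ablation, against 9.25, 8.80 and 9.10 in early control. The groups overlapped throughout. The widest tested difference was 0.35 in late ablation plus anti-CTLA4 minus late ablation (SE 0.28, adjusted p = 0.804). Early ablation minus early control was -0.19 (SE 0.25, adjusted p = 0.841), and its sign depended on the scaling of the arrays, since it was 0.16 with median scaling.

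Erbb3, the neuregulin receptor, was not detected on any of the 15 arrays by its single probe (ILMN_1250597), whose normalized signals were 4.41 to 4.94. No level or difference is given for it. Not detected here means not above this array's background, and it does not show that the gene was silent.

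**Figure D3:**
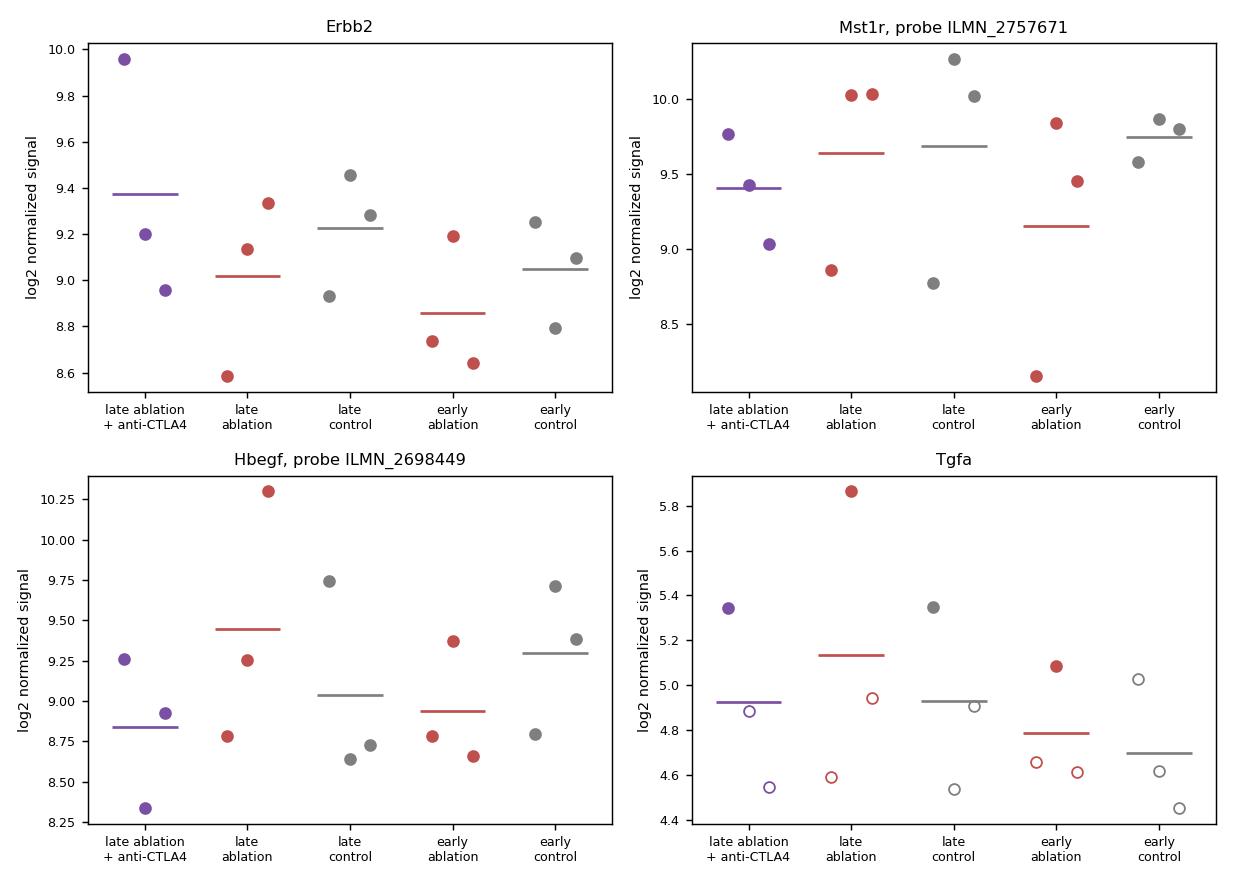
Log2 normalized signal of Erbb2, Mst1r (brighter probe), Hbegf (brighter probe) and Tgfa by array and group. Points are arrays, filled where detected and open where not, and bars are group means; each vertical axis has its own range and does not start at 0. Groups overlap for all 4 genes, and Mst1r is lowest on early ablation array 1 (8.16).

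Hgf, the ligand of Met, was as dim as its receptor, and its probes disagreed. The probe with the higher mean (ILMN_1237666) gave 4.97, 5.08 and 5.34 in late ablation plus anti-CTLA4, detected on 1 array. In late ablation it gave 4.58, 4.81 and 4.64, detected on none, against 4.84, 5.30 and 5.27 in late control, detected on 2. In early ablation it gave 4.77, 4.96 and 4.93, detected on none, against 5.12, 4.67 and 4.82 in early control, detected on 1. On this probe, as for Met, the group means were highest in late control and late ablation plus anti-CTLA4.

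Late ablation minus late control was -0.46 for this probe (SE 0.19), which corresponds to at least 1.06-fold lower and is given without a test. Over the 12 arrays the probe reached 3 detected arrays only through late control, the group where it was high. Late ablation plus anti-CTLA4 minus late ablation was 0.45 (SE 0.19, unadjusted p = 0.0336, limma's adjusted p = 0.599), or at least 1.05-fold higher with the antibody, and it did not pass the threshold. The second probe (ILMN_2729117) gave 0.04 and -0.12 in these comparisons. It stood at 5.19, 4.95 and 4.51 in late ablation, against 5.29, 4.57 and 4.68 in late control, with full overlap. The remaining probe, ILMN_2580097, was detected on no array. Early ablation minus early control was 0.02 on the first probe (SE 0.19, 95% interval -0.41 to 0.44, adjusted p = 0.987) and 0.04 on the second.

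Fibroblast marker signal, summed over 9 genes, was 3772 to 11081 in late ablation and 4808 to 16382 in late control, and 4481 to 8623 in late ablation plus anti-CTLA4, with overlap between all 3 groups. In early ablation fibroblast marker signal lay above that of every early control array. The Hgf probes did not separate these groups, but each was detected on at most 1 array of either group. Whether fibroblast content bears on the Hgf values was not tested.

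Tgfa, a ligand of Egfr, was detected on 4 of the 15 arrays, at most 1 in any group. Its probe (ILMN_2765162) gave 5.34, 4.88 and 4.55 in late ablation plus anti-CTLA4, 4.59, 5.86 and 4.95 in late ablation and 5.35, 4.54 and 4.91 in late control. It gave 4.66, 5.09 and 4.62 in early ablation, against 5.03, 4.62 and 4.45 in early control. The single highest value belonged to late ablation array 2. No tested comparison passed, and the widest was 0.35 in late ablation minus early ablation (SE 0.33, adjusted p = 0.801).

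Hbegf, a heparin-binding ligand of Egfr, was detected on all arrays by its brighter probe (ILMN_2698449). It gave 9.26, 8.34 and 8.92 in late ablation plus anti-CTLA4, 8.78, 9.25 and 10.30 in late ablation and 9.75, 8.64 and 8.73 in late control. It gave 8.78, 9.37 and 8.66 in early ablation, against 8.79, 9.72 and 9.39 in early control. Late ablation array 3 was the highest of the 15. Late ablation plus anti-CTLA4 minus late ablation was -0.60 (SE 0.41, 95% interval -1.49 to 0.28, adjusted p = 0.764), and late ablation minus early ablation was 0.51 (SE 0.42, adjusted p = 0.772). Early ablation minus early control was -0.36, or -0.022 with median scaling. The second Hbegf probe (ILMN_2569725) was detected on 1 array.

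Ereg, another Egfr ligand, was not detected on any array by either of its probes, whose normalized signals were 4.32 to 4.83. Without Erbb3 and Ereg, the 9 members with a probe leave 7 measured ones, which passed the filter of detection on at least 3 arrays.

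Across the comparisons, none of the 7 measured members passed limma's adjusted threshold where they were tested. The share of all features that passed was 0% in early ablation against early control, in late ablation against late control, in late control against early control and in late ablation against early ablation. It was 0.00662%, 1 of 15098 features, in late ablation plus anti-CTLA4 against late ablation and again against late control. At an unadjusted p under 0.05, 0 of 7 members, each by its brightest probe, were counted in early ablation against early control, where 8.73% of all features were. The further Egfr probes described above, some with an unadjusted p under 0.05, are not in these counts. In the comparisons below Met was not tested, which leaves 6 members. Hgf is among them, though it passed the detection filter only with its late control signals, which limits its tests against late control or of it. Of these, 0 were counted in late control against early control (9.98% of features), 0 in late ablation against early ablation (7.65%) and 0 in late ablation plus anti-CTLA4 against late control (6.01%).

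In late ablation plus anti-CTLA4 against late ablation 1 of the 6 tested members, Hgf, had an unadjusted p under 0.05 and was higher, beside 7.75% of all features and 4.05% higher. No member was tested in late ablation against late control.

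Groups that did not overlap were counted the same way, by the brightest probe of each member, so the further Egfr probes are left out. In early ablation against early control 1 of 7 members, Met, had no overlap, beside 21.3% of all features. In late ablation against late control, the contrast that chose Met, 2 did, Met and Hgf, where 4.4% of all features did. Over the 12 arrays Met and Hgf passed the detection filter only through late control, where they were high, so their lack of overlap is no support. In late control against early control 1 did (17.9% of features), in late ablation against early ablation 1 (11.9%), in late ablation plus anti-CTLA4 against late ablation 2 (10.3%) and against late control 0 (9.4%). Met is in each count of 1 or 2, and outside the early comparison its values come from arrays that chose it.

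**Figure D4:**
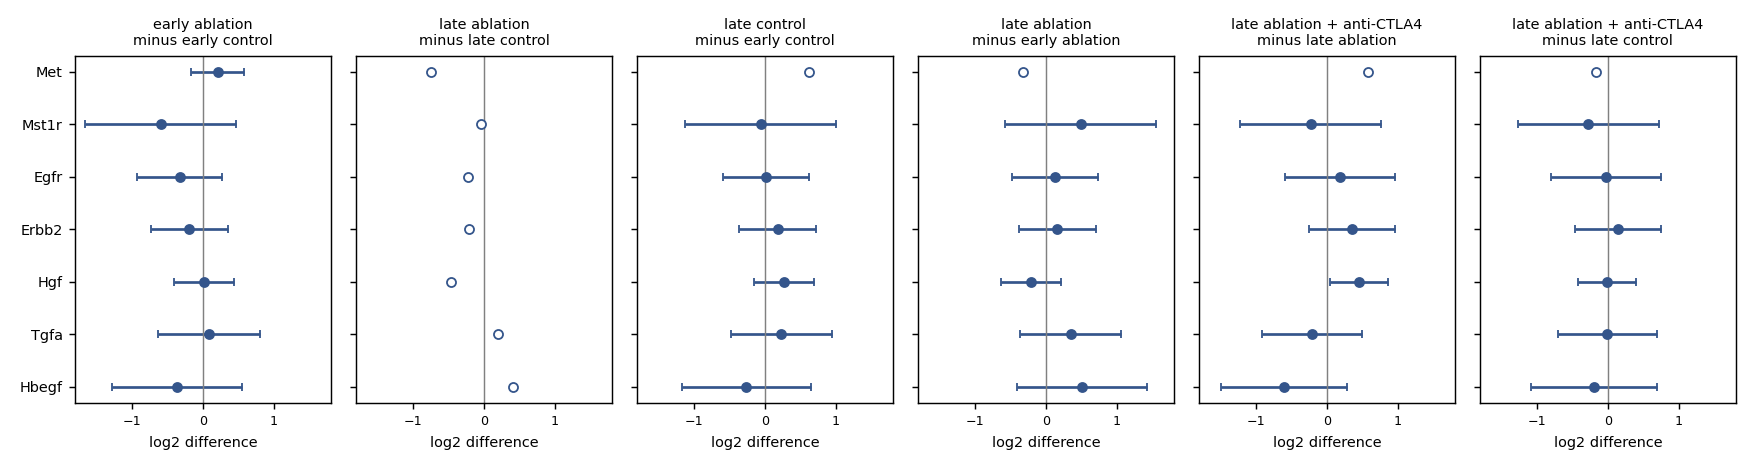
Log2 differences of the 7 measured members in 6 comparisons, the group named first minus the group named second, with 95% intervals from limma for the tested values. Filled points are tested values and open points, which have no interval, are values given without a test. No filled point passed the adjusted threshold.

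The median difference of the 7 members was -0.19 in early ablation against early control, where that of all features was -0.01. It was -0.21 in late ablation against late control (all features -0.01), 0.18 in late control against early control (-0.0062) and 0.16 in late ablation against early ablation (-0.02). It was 0.19 in late ablation plus anti-CTLA4 against late ablation (-0.0048) and -0.03 against late control (-0.02). The 95% intervals reached 0.34 to 1.06 on either side of a member's difference, the limit of a single unadjusted test with 3 arrays a group. The adjusted threshold is stricter. On simulated data for early ablation against early control, 2% of changes of 0.5 and 24% of changes of 1 were called.

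Around the members, 83 further genes of the same pathways were examined, in lists of other family receptors and ligands, ligand processing, intracellular signalling, feedback inhibitors and transcriptional targets of ERK. Of these, 64 were measured over 12 arrays and 66 over 15, and none passed the adjusted threshold in any of the 6 comparisons. In early ablation against early control 36 had a higher and 28 a lower mean, and 10.9% had an unadjusted p under 0.05, beside 8.73% of all features. With median scaling the split was 52 higher and 12 lower, with a median difference of 0.31 for these genes and 0.25 for all features. In late ablation against late control 33 were higher and 31 lower.

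Among the ligand processing genes, Plat, tissue plasminogen activator, averaged 10.48 ± 0.12 in early ablation and 9.53 ± 0.27 in early control (SD, n = 3 each), a difference of 0.94 (SE 0.30, adjusted p = 0.518). Hgfac, a serine protease that cuts the HGF precursor into its active form, averaged 11.91 ± 0.23 in early ablation and 12.53 ± 0.20 in early control (SD, n = 3 each), a difference of -0.62 (SE 0.20, adjusted p = 0.518). In neither gene did the early groups overlap, nor did they in 21.3% of all features. Plat differed by -0.92 in late ablation plus anti-CTLA4 against late ablation (SE 0.31, adjusted p = 0.487). Adam17, the main sheddase of Egfr ligands, differed by 0.55 there (SE 0.27, adjusted p = 0.655).

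Among the other ligands, the neuregulin Nrg1, which binds Erbb3, averaged 5.12 ± 0.31 in late ablation and 5.89 ± 0.40 in early ablation (SD, n = 3 each), a difference of -0.77 (SE 0.24, adjusted p = 0.620). It was -0.47 in late control against early control (SE 0.24, adjusted p = 0.546). On the anti-CTLA4 arrays Nrg1 was detected on none. Egf and Epgn, further ligands of Egfr, were also detected on no anti-CTLA4 array. Egf differed by -0.54 against late ablation (at least 1.05-fold lower, adjusted p = 0.591), and Epgn by -0.53 against late control (at least 1.09-fold lower, adjusted p = 0.825).

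Among the signalling proteins, Pik3r1, the regulatory subunit through which PI3K docks on activated receptors, had the smallest adjusted p of any pathway gene. It averaged 11.35 ± 0.36 in late ablation plus anti-CTLA4 and 10.36 ± 0.19 in late ablation (SD, n = 3 each), a difference of 0.99 (SE 0.20, adjusted p = 0.170). Against late control it differed by 0.68 (SE 0.20, adjusted p = 0.508), and in late control against early control by 0.55 (SE 0.18, adjusted p = 0.360). Sos2, an exchange factor that loads RAS with GTP, differed by 0.70 in late control against early control (SE 0.21, adjusted p = 0.350). Gab1, a docking protein of Met, differed by 0.51 in early ablation against early control (SE 0.22, adjusted p = 0.560).

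Of the feedback inhibitors, Cblb, a ubiquitin ligase that marks active receptors for destruction, averaged 6.95 ± 0.26 in early ablation and 6.13 ± 0.16 in early control (SD, n = 3 each), a difference of 0.82 (SE 0.27, adjusted p = 0.518). Lrig1, a membrane protein that lowers ErbB receptor levels, differed by -0.71 in late ablation against early ablation (SE 0.20, adjusted p = 0.620) and by -0.45 in late control against early control (SE 0.20, adjusted p = 0.492). Cblc, a relative of Cblb found in epithelia, differed by 0.52 (SE 0.17, adjusted p = 0.620) and 0.49 (SE 0.17, adjusted p = 0.383) in the same comparisons.

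ERK targets showed differences in opposite directions. Phlda1 averaged 10.56 ± 0.72 in early ablation and 11.43 ± 0.31 in early control (SD, n = 3 each), a difference of -0.87 (SE 0.35, adjusted p = 0.533), and it differed by 0.86 in late ablation against early ablation (adjusted p = 0.629). The Ets factor Etv5 differed by -0.64 in late control against early control (SE 0.26, adjusted p = 0.438). Myc differed by 0.63 in late ablation against late control (SE 0.24), a value without a test. The Eph receptor gene Epha4 averaged 5.32 ± 0.16 in late ablation plus anti-CTLA4, detected on 3 arrays, and 4.66 ± 0.07 in late control, detected on none (SD, n = 3 each). That was a difference of 0.66, or at least 1.22-fold higher, given without a test because Epha4 reached 3 detected arrays only through the anti-CTLA4 group.

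In the anti-CTLA4 comparisons more pathway genes lay below than above. Against late ablation 26 were higher and 40 lower, with a median difference of -0.13 (all features -0.0048). With median scaling 15 were higher and 51 lower, but that scaling also put the median of all features at -0.08. Against late control 20 were higher and 46 lower, with a median of -0.15 (all features -0.02). Of the 17 ligand processing genes, the most one-sided list there in the main fit, 2 were higher and 15 lower against late control under both scalings. None had an unadjusted p under 0.05. Median scaling put the median of all features at -0.06 in that comparison, and these splits were not tested. Since these arrays form a table of their own, the antibody and the table cannot be told apart here.

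The genes whose levels followed Met most closely over the 15 arrays, among 11923 others, were Mtx2 (r = 0.796), 1110059G10Rik (0.793), Rgs10 (0.789), Psmb9 (0.775) and Nr2e1 (0.767). Mtx2, 1110059G10Rik and Nr2e1 were detected on 3 or 4 arrays only, close to background as Met was. Rgs10 and Psmb9 were detected on all 15. Those that followed the brighter Hgf probe most closely were Fmc1 (r = 0.851), 0610040J01Rik (0.843), Tomm7 (0.793), Mybbp1a (0.793) and Rab26os (0.784), all detected on every array. These are the extremes of many correlations over arrays that share groups and are given as descriptions.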

How the data were processed

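Tumour RNA (Trizol extracts, biotinylated cRNA) was hybridised to Illumina MouseWG-6 v2 bead arrays, 15 in 5 groups of 3, grouped by the labels. The deposited unnormalized tables, one of 12 arrays and one of 3, hold an intensity per probe, and beside each intensity a detection p-value against the array's negative controls, per the file headers. The submitters' processing notes name GenomeStudio, whose version is not given in the sources used here. The deposited value table holds intensity on a linear scale, and each of its columns is linear in the raw signal of that array (residuals of at most 0.104). Its slope and offset are of unknown origin, and it served as an alternative.

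Signals were corrected with normexp from the detection p-values, given an offset of 16 and quantile normalized, and log2 values were taken (limma 3.58.1, R 4.3.3). Of 45281 probes, 34885 have 1 symbol, 18 several and 10378 none. Features needed a detection p under 0.05 on at least 3 arrays, and the brightest such probe stood for its symbol, which left 14633 features over 12 arrays and 15098 over 15. A fit with every probe as a feature gave the values of the other probes. Group means were fitted with lmFit and eBayes, two-sided, with Benjamini-Hochberg adjustment over all features (adjusted p under 0.05). Anti-CTLA4 comparisons used 15 arrays normalized together, the other comparisons 12. Printed levels come from the 15, and their differences depart from those of the 12 by at most 0.0036. The comparisons share arrays and are not independent. At-least folds raise undetected signals to the lowest detected signal of their array and do not cover the spread between arrays.

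The members and lists were chosen with earlier results of these data known. The named pathway genes are the 2 per list with the smallest unadjusted p in each comparison, of which some are given here, and the genes most like Met and Hgf are the 5 with the highest Pearson correlation. Epcam, Krt19 and Acta2 are among the markers named by rule. Same-numbered late ablation and late control arrays deviated together (correlations 0.587, 0.391 and 0.135), so the numbers may pair them, though no label says so. In the other comparisons same-numbered arrays did not deviate together in this way. The main fits used no pairing, so the printed SEs, intervals and p-values are unpaired. A replicate block was tried only as an alternative.

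On simulated data for early ablation against early control (14633 features, 50 changed at each size), 2% of changes of 0.5, 24% of 1, 88% of 2 and 94% of 3 on the log2 scale were called, with 4 false calls. Tried as alternatives were the scaling, background correction, offset, detection filter, probe rule, array weights, a replicate block, fits of fewer or more arrays, the authors' table, and leaving out each array.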

Additional observations from a re-analysis of the deposited data

Results flagged for a closer look

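Met had joined the set for its lower signal in late ablation. It is flagged here because its ablation difference ran in opposite directions at the 2 stages. Each early ablation array stood above the early control mean, by 0.26, 0.14 and 0.22 on the log2 scale, and each late ablation array lay below the late control mean, at -0.71, -0.77 and -0.74. The late minus the early difference was -0.95. This difference was not tested, because the late arrays chose Met, and the probe was undetected on the late ablation and early control arrays.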

How the results depend on the processing

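Over 42 member differences, 682 alternative values were computed, and none of those tested passed the adjusted threshold. Of the 503 for tested differences, 468 kept their sign and 35 reversed. Of the 179 for differences given without a test, 171 kept their sign, 8 changed it and 14 moved by more than the spread between arrays. With median scaling, Erbb2 in early ablation against early control was 0.16 and Mst1r in late control against early control 0.10. With array weights, Mst1r was 0.19 and Egfr -0.14 in late control against early control, Egfr -0.011 in anti-CTLA4 against late ablation and Erbb2 -0.060 in anti-CTLA4 against late control. In the authors' table, Tgfa was -0.032 in early ablation against early control and Hgf 0.0019 in anti-CTLA4 against late control. Without both late arrays numbered 1, an alternative chosen after seeing the data, Mst1r was 0.40 in late control against early control. Leaving out 1 array gave, in early ablation against early control, -0.086 to 0.075 for Hgf and -0.037 to 0.25 for Tgfa. It gave -0.35 to 0.39 for Mst1r and -0.22 to 0.15 for Egfr in late control against early control, and -0.0050 to 0.88 for Mst1r in late ablation against early ablation. In late ablation against late control it gave -0.50 to 0.34 for Mst1r, -0.34 to 0.011 for Egfr, -0.36 to 0.0090 for Erbb2 and -0.019 to 0.76 for Hbegf. There Mst1r was also 0.054 with median scaling and Egfr 0.0057 without both late arrays numbered 1. Against late ablation, anti-CTLA4 gave -0.24 to 0.57 for Egfr and -0.48 to 0.16 for Tgfa. Against late control it gave -0.73 to 0.012 for Mst1r, -0.46 to 0.35 for Egfr, -0.14 to 0.36 for Erbb2, -0.16 to 0.071 for Hgf, -0.22 to 0.20 for Tgfa and -0.41 to 0.16 for Hbegf. The cause of these reversals was not tested.

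The number of features called was 0, 0, 0, 0, 1 and 1 in the 6 comparisons. In early ablation against early control it was 23 with array weights, 1 with only those groups and 1 without both late arrays numbered 1, which also gave 1 in late ablation against late control. In late control against early control it was 214 with array weights. In anti-CTLA4 against late ablation it was 2 with median scaling, 7 with no detection filter, 5 with every probe, 2 in the authors' table and 18 with array weights. In anti-CTLA4 against late control it was 3, 7 and 7 under the first 3 of these settings, 2 with an offset of 50 and 832 with array weights. Leaving out 1 array gave 0 to 11 in early ablation against early control, 0 to 0 in late ablation against late control, 0 to 2 in late control against early control, 0 to 8 in late ablation against early ablation, and 1 to 9 and 1 to 12 in the anti-CTLA4 comparisons. With a replicate block, called features stayed at 0, 0, 0, 0, 1 and 1, and the block changed no member's call (Met in early ablation against early control 0.21, adjusted p = 0.716). Median scaling put the median of all features at 0.25 in early ablation against early control, 0.15 in late control against early control and -0.10 in late ablation against early ablation. Signal over background limits Met, Hgf and Tgfa, and arrays number 3 a group.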
